A study of Populus tremula x Populus tremuloides with 22 samples.

Results

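The 5 genes described here are the secondary wall cellulose synthases of hybrid aspen, listed by identifier as CesA4 (Potri.002G257900), CesA7-A (Potri.006G181900), CesA7-B (Potri.018G103900), CesA8-A (Potri.011G069600) and CesA8-B (Potri.004G059600). They were taken from the 34699 genes counted in each library by a list of identifiers that sets no condition on measured values. The list was chosen with earlier results of these data known. All 5 passed the filter on low counts. No gene names stand beside the identifiers in the files, so the names rest on the list and were not checked against an annotation.

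Cellulose is made at the plasma membrane by rosette-shaped complexes of cellulose synthase subunits. In the secondary wall, the thick layer that xylem vessels and fibres lay down after they stop expanding and that makes up most of wood, the complex is built from the CESA4, CESA7 and CESA8 classes. In Arabidopsis, loss of any one class leaves weak, collapsed xylem vessels, so no class replaces another. In poplar the CESA7 and CESA8 classes are each present as a pair of close copies left by a duplication of the whole genome. Growing cells use other classes of cellulose synthase for the thin primary wall.

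RNA from stem internodes of 3-week-old trees of Populus tremula x Populus tremuloides, grown in a greenhouse, was sequenced in 22 libraries. LBD11-OE trees overexpressed LBD11 of Arabidopsis thaliana and were represented by lines 1, 2 and 14 with 3 libraries each, or 9 in all. LBD4-OE trees overexpressed LBD4 of Arabidopsis thaliana and were represented by line 11 with 3 libraries, line 14 with 2 and line 17 with 3, or 8 in all. Wild type (WT) had 5 libraries and was the control for both constructs. LBD4 and LBD11 encode LATERAL ORGAN BOUNDARIES DOMAIN transcription factors, and the series' title places the overexpression in the xylem without naming a promoter. Line 14 of LBD11-OE carries that number in its sample titles but the number 3 in its genotype label, and the titles were followed. The labels do not say whether the libraries of a line came from separate trees, so p-values measure the spread between these libraries, which may be technical.

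Total counts ran from 23437445 to 41969957 per library, and 27836 to 28374 genes had at least 1 count. WT replicate 3 and LBD4-OE-11 replicate 1 stood apart from the rest on the second principal component (scores of -73.6 and -41.3, against -23.1 to 29.1 in the other libraries). A set of 7 libraries, made up of WT replicate 3, LBD4-OE-11 and LBD11-OE-2, also differed from the other 15. Of 25626 genes, 17 were lower and 4 were higher in the smaller set without overlap. This set was named in earlier work on these data, and the labels give no batch. It crosses the constructs but holds all libraries of LBD4-OE-11 and LBD11-OE-2. As a term of a model it therefore cannot be told apart from differences of these lines and of WT replicate 3. Results that change with the set or without the 2 libraries are given so. The listed marker genes, whose identity was likewise not checked, were counted in every library. The phloem marker averaged 48.9 ± 11.9 CPM in LBD11-OE, 40.1 ± 9.70 in LBD4-OE and 48.9 ± 15.5 in WT (SD, n = 9, 8 and 5). The cambium marker averaged 12.9 ± 2.25 CPM in LBD11-OE, 15.1 ± 2.23 in LBD4-OE and 13.4 ± 3.55 in WT. The summed level of both markers of xylem maturation ranged from 14.1 to 30.2 CPM in LBD11-OE, from 25.0 to 49.2 in LBD4-OE and from 36.9 to 40.8 in WT. Taken singly, these markers had estimates of opposite sign in LBD11-OE against WT, as given below.

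The 5 genes together took 0.367% to 0.678% of all counts of a library. Levels are given as CPM, which set the count of a gene against the library size after trimmed mean of M-values (TMM) scaling. Transcript lengths were not used here, so a level is compared across libraries for 1 gene and never between genes. The sum over the 5 genes was 5509 ± 1006 CPM in LBD11-OE, 4635 ± 551 in LBD4-OE and 4353 ± 518 in WT (SD, n = 9, 8 and 5). By line it was 6810 ± 261 CPM in LBD11-OE-14, 4975 ± 319 in LBD11-OE-2 and 4743 ± 175 in LBD11-OE-1. The LBD4-OE lines 14, 11 and 17 had 5415 ± 72.3, 4402 ± 392 and 4347 ± 306 CPM. LBD4-OE-14 thus lay above LBD11-OE-1 and LBD11-OE-2. In a stem sample, a larger share of xylem cells and more of a transcript per xylem cell cannot be told apart.

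In the stems of LBD11-OE trees CesA4 and CesA7-B were about 1.4 times as abundant as in WT, and CesA8-A was 1.23 times as abundant. CesA8-B, the copy of CesA8-A with the higher counts, had nearly equal means in LBD11-OE and WT. CesA7-A lay higher in LBD11-OE on average without passing the test. In LBD4-OE stems none of the 5 passed the test against WT. Each comparison used the quasi-likelihood F test of edgeR, with Benjamini-Hochberg adjustment over all 25626 genes tested and a threshold of 0.05. Libraries and not lines were the units of this test, so its intervals and p-values do not measure the spread between lines of a construct.

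**Figure D1:**
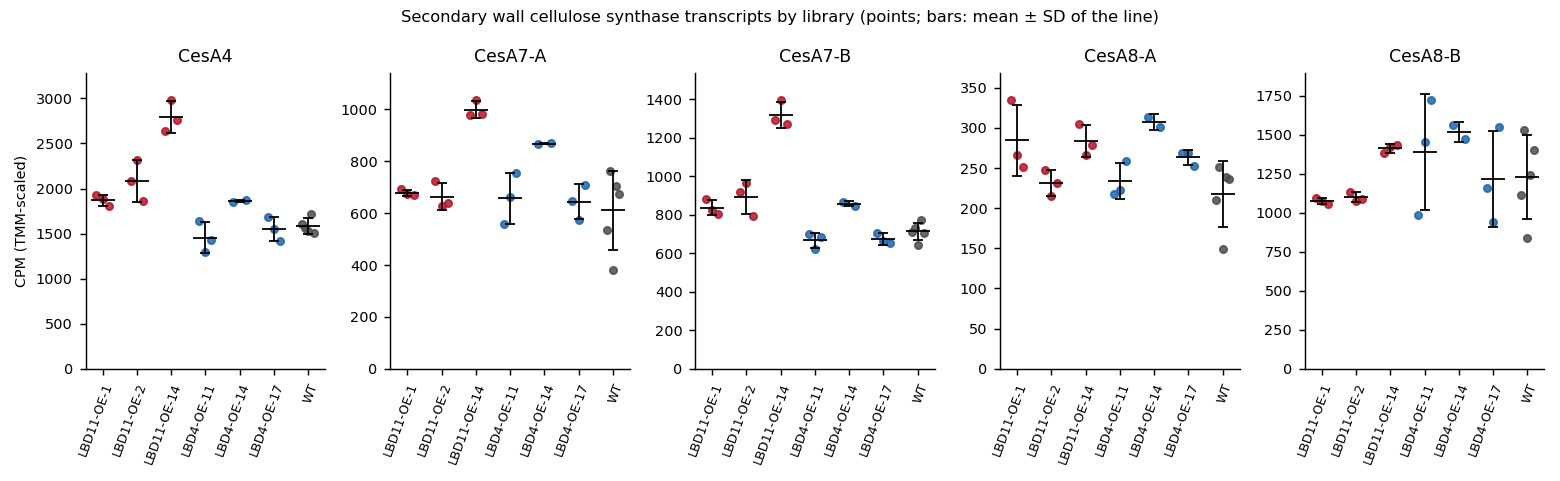
TMM-scaled CPM (y axis, starting at 0, a scale of its own per gene) of the 5 genes in each library (points), by line (x axis), with the mean and SD of the line as bars. LBD11-OE-14 is the highest line for CesA4, CesA7-A and CesA7-B, with 2636 to 2981, 979.5 to 1036 and 1271 to 1397 CPM, whereas the CesA8-B points of the LBD4-OE lines 11 and 17 and of WT are spread widely.

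CesA4, the sole CESA4-class gene of the list, lies on chromosome 2 at 24622116 to 24627412 on the plus strand, in the coordinates of the files, whose genome build is not given in the sources used here. It had 1924, 1883 and 1801 CPM in LBD11-OE-1, 2082, 2320.3 and 1858 CPM in LBD11-OE-2, and 2636, 2981 and 2763 CPM in LBD11-OE-14. In LBD4-OE it had 1639.5, 1294 and 1428 CPM in line 11, 1854 and 1873 CPM in line 14, and 1682, 1552 and 1414 CPM in line 17. The WT libraries had 1604, 1563, 1526, 1722 and 1507 CPM. Every LBD11-OE library lay above every WT library, and the LBD4-OE libraries lay on both sides of the WT range. The log2 fold change of LBD11-OE against WT was 0.51 ± 0.12 (SE; fold 1.42, 95% interval 1.20 to 1.68; edgeR adjusted p = 0.00180). Without LBD11-OE-14 it was 0.32 (edgeR adjusted p = 0.0156). The span of CesA4 overlaps 396 bases of Potri.002G258000 on the minus strand, a gene with 18 to 61 counts per library where CesA4 had 39526 to 92316. The strand setting of the counting is not given in the sources used here, and reads in that overlap cannot be told apart.

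CesA7-B lies on chromosome 18 at 12376268 to 12381201 on the minus strand and had the same profile. It had 883, 826 and 804 CPM in LBD11-OE-1, 921, 965 and 793 CPM in LBD11-OE-2, and 1294, 1397 and 1271 CPM in LBD11-OE-14. In LBD4-OE the values were 699.7, 624 and 683 CPM in line 11, 867 and 849 CPM in line 14, and 708, 663 and 653 CPM in line 17. WT libraries had 711, 734, 645, 771 and 708 CPM. Again all LBD11-OE libraries lay above WT, with a narrow gap between 793 CPM in LBD11-OE-2 replicate 3 and 771 CPM in WT replicate 4. The log2 fold change of LBD11-OE against WT was 0.51 ± 0.13 (SE; fold 1.42, 95% interval 1.19 to 1.71; edgeR adjusted p = 0.00314). Without LBD11-OE-14 it was 0.28 (edgeR adjusted p = 0.0246).

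CesA7-A, the other CESA7-class copy, lies on chromosome 6 at 18857533 to 18862415 on the minus strand. It overlaps Potri.006G181800 on the plus strand over 967 bases, a gene with 35 to 123 counts per library where CesA7-A had 10769 to 32197. Its level was 693, 673 and 669.7 CPM in LBD11-OE-1, 723, 629 and 639 CPM in LBD11-OE-2, and 979.5, 1036 and 984 CPM in LBD11-OE-14. LBD4-OE had 558, 663 and 754 CPM in line 11, 867 and 869 CPM in line 14, and 648, 575 and 709 CPM in line 17. WT had 534, 763, 381, 703 and 673 CPM, the lowest being replicate 3. All 3 libraries of LBD11-OE-14 and both of LBD4-OE-14 exceeded every WT library, and the other lines fell within the WT range. The log2 fold change of LBD11-OE against WT was 0.35 ± 0.16 (SE; edgeR adjusted p = 0.0879). It passed the threshold without WT replicate 2 (0.45, edgeR adjusted p = 0.0450), without line LBD11-OE-2 (0.46, edgeR adjusted p = 0.0445) and with library set as a term of the model (0.41, edgeR adjusted p = 0.0217).

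CesA8-A lies on chromosome 11 at 6090131 to 6097320 on the minus strand and is the copy with fewer counts of the CESA8 class. It had 335, 267 and 252 CPM in LBD11-OE-1, 248, 215 and 231 CPM in LBD11-OE-2, and 305, 267 and 279 CPM in LBD11-OE-14. LBD4-OE had 218, 223 and 259 CPM in line 11, 314 and 301 CPM in line 14, and 269, 269 and 253 CPM in line 17. WT had 210.4, 252, 149.5, 239 and 237 CPM, so that replicate 3 was far below the other WT libraries, and both constructs overlapped with WT. The log2 fold change of LBD11-OE against WT was 0.29 ± 0.11 (SE; edgeR adjusted p = 0.0482), and that of LBD4-OE against WT was 0.27 ± 0.12 (SE; edgeR adjusted p = 0.160). The call for LBD11-OE held with 9 of the 22 libraries left out singly. It was 0.18 without WT replicate 3 (edgeR adjusted p = 0.187). It was also lost by edgeR without WT replicate 1 or 5 (adjusted p = 0.0926 and 0.0520), without LBD11-OE-1 replicate 1, 2 or 3 (0.0830, 0.0618 and 0.0511), and without LBD11-OE-14 replicate 1, 2 or 3 (0.0779, 0.0578 and 0.0698). Leaving out LBD4-OE-11 replicate 3 (0.0542) or LBD4-OE-17 replicate 1, 2 or 3 (0.0548, 0.0534 and 0.0535) ended it too, although these libraries take part only in the shared estimate of the spread and the filter. With both libraries that stood apart removed the edgeR adjusted p was 0.160, and in limma voom, where line was a random block, it was 0.0833.

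CesA8-B lies on chromosome 4 at 4971436 to 4978454 on the minus strand. Its level was 1092, 1072 and 1052 CPM in LBD11-OE-1, 1134, 1078 and 1090.2 CPM in LBD11-OE-2, and 1382, 1419 and 1437 CPM in LBD11-OE-14. In LBD4-OE it was 987, 1453 and 1721 CPM in line 11, 1564 and 1473 CPM in line 14, and 1159, 940.2 and 1549.5 CPM in line 17. In WT it was 1115, 1533, 838, 1245 and 1403 CPM. Libraries of 1 LBD11-OE line lay close together, whereas those of LBD4-OE-11, of LBD4-OE-17 and of WT differed by more than 1.5 times between the lowest and the highest. The log2 fold change was -0.04 ± 0.14 for LBD11-OE against WT (SE; 95% interval -0.33 to 0.25; edgeR adjusted p = 0.868) and 0.14 ± 0.15 for LBD4-OE against WT (SE; 95% interval -0.16 to 0.44; edgeR adjusted p = 0.607).

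Thus 3 of the 5 genes, CesA4, CesA7-B and CesA8-A, passed as higher in LBD11-OE than in WT and 0 as lower. In this comparison 32.3% of all genes tested changed, 16.1% of all genes rose and 16.3% fell. The CesA8-A call was the least stable of the 3. It overlapped with WT, had an edgeR adjusted p of 0.0482 and held with 9 of the 22 libraries left out singly. The median log2 fold change of the 5 genes was 0.35, against 0.0019 over all genes tested. CesA4 and CesA7-B did not overlap with WT, as was true of 5.59% of all genes in the upward direction. In LBD4-OE 0 of the 5 passed edgeR's test, where 4.28% of all genes changed, 2.71% rising and 1.57% falling. At an unadjusted p under 0.05 edgeR had 1, CesA8-A, where 21.8% of all genes passed that level, and DESeq2 and limma voom called 0. With library set as a term CesA8-A was called in LBD4-OE (0.35, edgeR adjusted p = 0.0113). Both comparisons share the WT libraries. Within the 15 libraries of the larger set the count for LBD11-OE was 3. Within the smaller set WT replicate 3 stands alone, and only effect sizes are given here. There CesA4 and CesA7-B had log2 fold changes of 0.42 and 0.44, while CesA7-A had 0.77, CesA8-A 0.60 and CesA8-B 0.36. These values rest on WT replicate 3, which had the lowest WT level of each gene except CesA4.

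**Figure D2:**
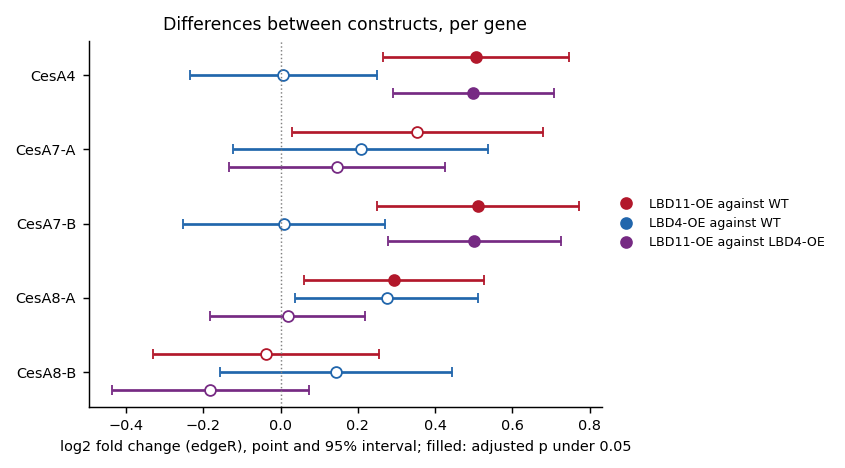
Log2 fold change (x axis) of each gene (y axis) for LBD11-OE against WT, LBD4-OE against WT and LBD11-OE against LBD4-OE. Points are edgeR estimates with 95% intervals derived from the F statistic, filled where the adjusted p is under 0.05. CesA4 and CesA7-B have near-equal values of 0.51 against WT and of 0.50 against LBD4-OE, and CesA8-B is the sole gene with estimates below 0.

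The direct comparison of the constructs gave the same pair. It uses the same fit and the same LBD11-OE libraries as the comparison with WT, and is not independent of it. CesA4 was higher in LBD11-OE than in LBD4-OE by 0.50 ± 0.10 on the log2 scale (SE; edgeR adjusted p = 8.64e-04) and CesA7-B by 0.50 ± 0.11 (SE; edgeR adjusted p = 0.00175). CesA7-A, CesA8-A and CesA8-B had 0.15 ± 0.14, 0.02 ± 0.10 and -0.18 ± 0.12 (SE; edgeR adjusted p = 0.518, 0.930 and 0.354). The 2 calls of 5, both upward, stand beside 8.08% of all genes that were higher in LBD11-OE than in LBD4-OE and 8.88% that were lower. Without LBD11-OE-14 the values were 0.32 for CesA4 and 0.27 for CesA7-B (edgeR adjusted p = 0.0154 and 0.0276). Between the lines of the smaller set alone, LBD11-OE-2 and LBD4-OE-11, they were 0.51 and 0.41 and 0 genes of the 5 passed edgeR's test (adjusted p = 0.0709 and 0.103), in a fit on 7 libraries.

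The 2 markers of the xylem maturation list had estimates of opposite sign in LBD11-OE against WT, and 1 of them passed the test. Potri.011G044500 averaged 11.1 ± 4.18 CPM in LBD11-OE, 27.4 ± 6.99 in LBD4-OE and 28.4 ± 2.18 in WT (SD, n = 9, 8 and 5). In LBD11-OE against WT it had -1.36 ± 0.21 on the log2 scale (SE; edgeR adjusted p = 6.67e-05). The other marker of that list, Potri.004G207600, averaged 13 ± 3.25 CPM in LBD11-OE, 9.59 ± 2.38 in LBD4-OE and 9.68 ± 2.26 in WT. In LBD11-OE it had 0.42 ± 0.19 against WT and 0.43 ± 0.16 against LBD4-OE (SE; edgeR adjusted p = 0.0953 and 0.0729). Their part in the values of the 5 cellulose synthases was not tested.

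Among single lines, LBD11-OE-14 had 4 of the 5 genes higher than WT, where 26.7% of all 26271 genes of the line model changed. Its log2 fold changes were 0.82 ± 0.09 for CesA4, 0.71 ± 0.15 for CesA7-A, 0.89 ± 0.08 for CesA7-B and 0.38 ± 0.12 for CesA8-A (SE; edgeR adjusted p = 3.90e-07, 0.00101, 2.06e-08 and 0.0245). CesA8-B had 0.20 ± 0.17 (SE; edgeR adjusted p = 0.412). The CesA8-A call of this line was lost without LBD11-OE-14 replicate 1 (0.33, edgeR adjusted p = 0.106) or replicate 3 (0.39, edgeR adjusted p = 0.0594).

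LBD11-OE-2 had CesA4 and CesA7-B higher than WT, with log2 fold changes of 0.39 ± 0.09 and 0.32 ± 0.08 (SE; edgeR adjusted p = 0.00388 and 0.00804), where 16.3% of all genes changed. Without LBD11-OE-2 replicate 2 they were 0.31 and 0.26 (edgeR adjusted p = 0.0522 and 0.0762), and without replicate 1 CesA7-B had 0.30 (edgeR adjusted p = 0.0508). CesA7-A and CesA8-A had 0.12 and 0.09 in this line (edgeR adjusted p = 0.635 and 0.680).

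LBD11-OE-1 had CesA7-B and CesA8-A higher than WT, with log2 fold changes of 0.23 ± 0.08 and 0.38 ± 0.12 (SE; edgeR adjusted p = 0.0443 and 0.0296), where 21.5% of all genes changed. CesA4 had 0.24 ± 0.09 (SE; edgeR adjusted p = 0.0623), and passed without WT replicate 4 (0.27, edgeR adjusted p = 0.0496) or LBD4-OE-11 replicate 1 (0.24, edgeR adjusted p = 0.0481). CesA8-A lay at 335 CPM in replicate 1 against 267 and 252 in the others, and without that library its value was 0.25 (edgeR adjusted p = 0.228). Without it CesA7-B had 0.19 (edgeR adjusted p = 0.181), and its call was lost as well without LBD11-OE-1 replicate 2 or 3 (0.0866 and 0.0658), WT replicate 1, 3 or 5 (0.0596, 0.0753 and 0.0725), LBD11-OE-2 replicate 1 (0.0523), LBD11-OE-14 replicate 3 (0.0513), LBD4-OE-14 replicate 1 or 2 (0.0563 and 0.0561) and LBD4-OE-17 replicate 1, 2 or 3 (0.0523, 0.0511 and 0.0526).

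Tested jointly, the 3 LBD11-OE lines differed in CesA7-B (edgeR F of 32.6, adjusted p = 1.84e-04) and in CesA4 (edgeR F of 18.2, adjusted p = 0.00445), where 1.36% of all genes differed among these lines. Without LBD11-OE-14 replicate 2, the library with the highest CesA4 level, the adjusted p of CesA4 was 0.0665. CesA7-A had an adjusted p of 0.0980, and 0.00290 without WT replicate 3 by the same edgeR test. For CesA8-A and CesA8-B the edgeR adjusted p was 0.494 and 0.531.

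In pairs of lines, LBD11-OE-14 exceeded LBD11-OE-1 in CesA4 by a log2 fold change of 0.58 ± 0.10 and in CesA7-B by 0.66 ± 0.09 (SE; edgeR adjusted p = 0.00206 and 1.67e-04), with 1.69% of all genes different. LBD11-OE-14 exceeded LBD11-OE-2 in CesA7-B by 0.57 ± 0.09 (SE; edgeR adjusted p = 0.00262), with 0.662% of all genes different, and in CesA4 by 0.42 ± 0.10 (SE; edgeR adjusted p = 0.0512). LBD11-OE-2 and LBD11-OE-1 differed by edgeR in 0 of the 5 genes and in 0.00761% of all genes. At an unadjusted p under 0.05 they differed in 1, CesA8-A, by -0.30 (95% interval -0.59 to -0.01), and in 8.16% of all genes.

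**Figure D3:**
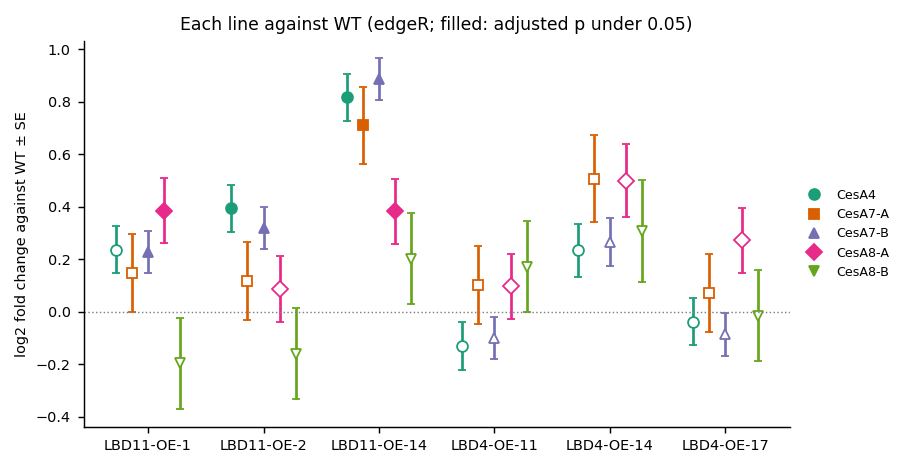
Log2 fold change against WT (y axis, edgeR estimate ± SE) of the 5 genes in each line (x axis), filled where the adjusted p is under 0.05. In LBD11-OE-14 CesA4, CesA7-A and CesA7-B lie between 0.71 and 0.89, and no point of the LBD4-OE lines is filled.

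None of the LBD4-OE lines passed for any of the 5 genes by edgeR, where 1.94%, 0.712% and 2.62% of all genes changed in lines 11, 14 and 17. At an unadjusted p under 0.05 the counts were 0 in line 11, 4 in line 14 and 1 in line 17, where 17.7%, 15.5% and 18.2% of all genes passed that level. LBD4-OE-14 had the highest values, at 0.51 ± 0.17 for CesA7-A, 0.50 ± 0.14 for CesA8-A, 0.27 ± 0.09 for CesA7-B and 0.23 ± 0.10 for CesA4 (SE; edgeR adjusted p = 0.141, 0.0864, 0.158 and 0.265). This line has 2 libraries. Without WT replicate 2 its CesA8-A value was 0.56 (edgeR adjusted p = 0.0489). Among the LBD4-OE lines 0 of the 5 genes differed in the joint edgeR test, where 0.194% of all genes did. At an unadjusted p under 0.05 there were 2, CesA4 and CesA7-B, against 9.95% of all genes. Their adjusted p was 0.364 and 0.228.

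Ranked by mean level, CesA4 ran from LBD11-OE-14 (2793 ± 175 CPM) through LBD11-OE-2 (2087 ± 231), LBD11-OE-1 (1869.5 ± 62.3), LBD4-OE-14 (1864 ± 13.3), WT (1584 ± 85.6) and LBD4-OE-17 (1549 ± 134) to LBD4-OE-11 (1454 ± 174). Of the neighbours in this order, LBD11-OE-14 and LBD11-OE-2 did not overlap, nor did LBD4-OE-14 and WT, and neither pair passed the edgeR test (adjusted p = 0.0512 and 0.265). CesA7-B had the same order, except that LBD4-OE-14 (858 ± 13.1) came before LBD11-OE-1 (838 ± 41.0). There, LBD11-OE-14 and LBD11-OE-2 differed, as did LBD11-OE-1 and WT, and the other neighbours overlapped.

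CesA7-A ran from LBD11-OE-14 (999.7 ± 31.5 CPM) and LBD4-OE-14 (868 ± 1.59) to a group of 5 with overlapping ranges, from LBD11-OE-1 (678 ± 12.4) down to WT (611 ± 153). LBD4-OE-14 did not overlap with either neighbour, and neither step passed the edgeR test (adjusted p = 0.612 and 0.352). For CesA8-A LBD4-OE-14 led (307 ± 9.47 CPM) and WT was last (218 ± 40.9), with all neighbours overlapping. For CesA8-B LBD4-OE-14 also led (1518 ± 64.6 CPM), while LBD11-OE-2 (1101 ± 29.6) and LBD11-OE-1 (1072 ± 19.9) came last, below WT. Its sole pair of neighbours without overlap was LBD4-OE-14 and LBD11-OE-14 (edgeR adjusted p = 0.853).

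Of the duplicated classes, the CESA7 pair differed in balance between the constructs. CesA7-A made up 43.5% ± 1.75 of the summed CesA7-A and CesA7-B counts in LBD11-OE, 49.4% ± 2.92 in LBD4-OE and 45.5% ± 5.51 in WT (SD, n = 9, 8 and 5). The difference of -5.88 percentage points between LBD11-OE and LBD4-OE passed an exact two-sided permutation test over libraries (p = 1.65e-04, adjusted p = 9.87e-04 over 6 tests). With the mean of each line as 1 value it was -5.98 with an exact p of 0.10, the smallest that 3 lines against 3 allow. The share of LBD11-OE did not pass against WT (difference -1.97, exact permutation p = 0.337). With WT replicate 3 left out, where the share was 37.2% against 42.9% to 51.0% in the other WT libraries, the difference was -4.05 (exact permutation p = 0.0112). LBD4-OE against WT had a difference of 3.91 (exact permutation p = 0.115), and 5.28 without WT replicate 2 (exact permutation p = 0.0384).

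CesA8-A made up 18.3% ± 2.34 of the summed CesA8-A and CesA8-B counts in LBD11-OE, 16.7% ± 3.14 in LBD4-OE and 15.1% ± 0.87 in WT. The share was higher in LBD11-OE than in WT by 3.20 percentage points (exact permutation p = 0.0105, adjusted p = 0.0315 over 6 tests). It ranged from 15.8% to 23.5% in LBD11-OE and from 14.1% to 16.1% in WT, and LBD11-OE-1 had the highest mean at 20.9% ± 2.24. The difference between LBD11-OE and LBD4-OE, 1.67 points, did not pass (exact permutation p = 0.232), nor did that between LBD4-OE and WT, 1.53 points (exact permutation p = 0.333). Copies of a class are similar in sequence, reads of hybrid aspen were counted on identifiers of the black cottonwood scheme, and reads could be assigned to the wrong copy or lost, so these shares are uncertain as absolute values.

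As the classes are assembled into 1 complex, the ratio of the counts of each pair of genes within a library was set beside the single levels. These ratios do not depend on library size and were added after the levels had been seen, as a family of 30 tests. They share genes and libraries with each other and with the tests of single genes. The ratio tests are therefore not independent of one another or of those calls. The ratio of CesA4 to CesA7-B had near-equal means in the 3 groups. Its log2 value averaged 1.15 ± 0.07 in LBD11-OE, 1.15 ± 0.08 in LBD4-OE and 1.15 ± 0.06 in WT (SD, n = 9, 8 and 5). The differences were 0.0030 between LBD11-OE and WT, -0.0046 between LBD4-OE and WT and 0.0076 between LBD11-OE and LBD4-OE (exact permutation p = 0.953, 0.911 and 0.834).

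CesA4 against CesA8-B moved most. The log2 ratio lay between 0.77 and 1.11 in the LBD11-OE libraries, between -0.27 and 0.73 in LBD4-OE and between 0.03 and 0.86 in WT. All LBD11-OE libraries lay above all LBD4-OE libraries, and they overlapped with WT. The mean was higher in LBD11-OE than in LBD4-OE by 0.65 (exact permutation p = 4.11e-05, the smallest this design can give, adjusted p = 6.17e-04) and higher than in WT by 0.50 (exact permutation p = 0.00250, adjusted p = 0.00749). Left out singly, the libraries moved the difference to WT between 0.41 and 0.62. CesA7-B against CesA8-B followed, with differences of 0.64 to LBD4-OE and 0.50 to WT (exact permutation p = 4.11e-05 and 0.00150, adjusted p = 6.17e-04 and 0.00749).

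CesA7-A against CesA8-B separated LBD11-OE from WT without overlap. The log2 ratio ranged from -0.78 to -0.45 in LBD11-OE and from -1.14 to -0.82 in WT, a difference of 0.39 (exact permutation p = 5.00e-04, the smallest that 9 libraries against 5 allow, adjusted p = 0.00300). With line means as single values the difference was likewise 0.39 (exact permutation p = 0.0179, the smallest that 3 lines against 5 libraries allow). Such a test exchanges means of lines with single WT libraries, which are unlike units, so its p-value is approximate. CesA8-A against CesA8-B differed by 0.32 between LBD11-OE and WT (exact permutation p = 0.00699, adjusted p = 0.0175). In line means against WT the exact permutation p was 0.0714 for CesA4 against CesA8-B and 0.0536 for CesA7-B against CesA8-B. Between the 3 lines of each construct the exact p was 0.10 for both ratios, the smallest possible.

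LBD4-OE differed from WT in ratios to CesA8-A. CesA7-B against CesA8-A was lower in LBD4-OE by 0.29 on the log2 scale (exact permutation p = 0.00466, adjusted p = 0.0127 over the 30 tests), and CesA4 against CesA8-A was lower by 0.29 (exact permutation p = 0.0148, adjusted p = 0.0341). Without the 2 libraries that stood apart these differences were -0.23 and -0.22 (exact permutation p = 0.00303 and 0.00909). Without WT replicate 3 alone CesA4 against CesA8-A differed by -0.17 (exact permutation p = 0.0646). With line means as single values against single WT libraries, with the limit given above, the differences were -0.28 and -0.29 (exact permutation p = 0.0536 and 0.125).

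**Figure D4:**
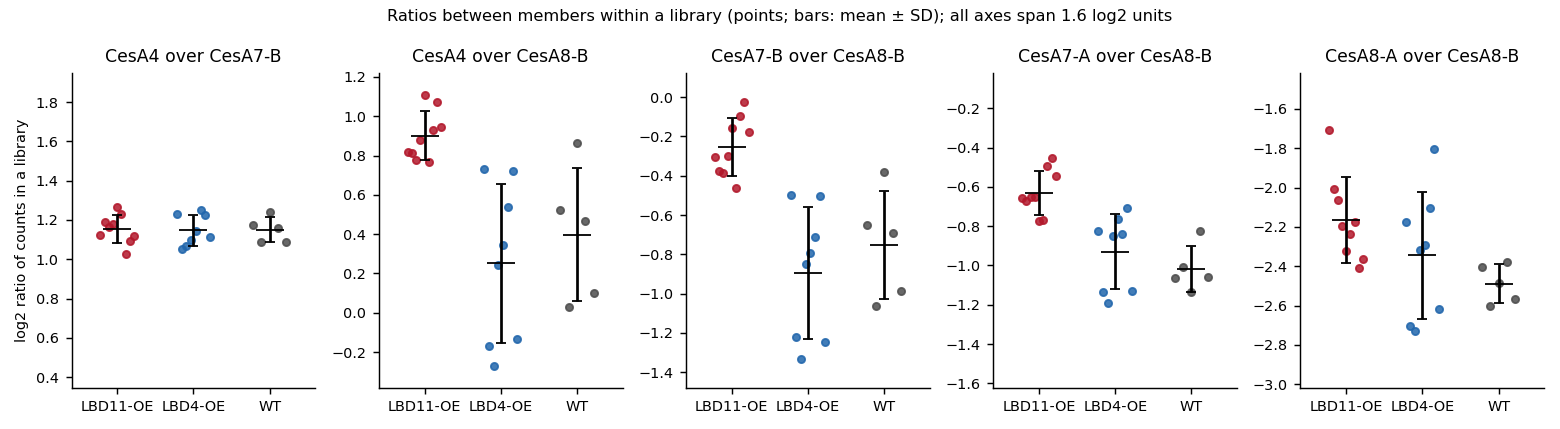
Log2 ratio of the counts of 2 genes within a library (y axis, 1.6 log2 units in each panel) for LBD11-OE, LBD4-OE and WT libraries (points), with mean and SD as bars. CesA4 over CesA7-B averages 1.15 in the 3 groups, and each ratio over CesA8-B is highest in LBD11-OE.

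Within the summed counts of the 5 genes CesA4 took 40.8% ± 1.68 in LBD11-OE, 34.5% ± 4.04 in LBD4-OE and 36.8% ± 4.34 in WT, and CesA8-B took 21.9% ± 1.19, 29.1% ± 4.76 and 27.9% ± 3.33 in LBD11-OE, LBD4-OE and WT (SD, n = 9, 8 and 5). CesA7-B took 18.3% ± 0.91 in LBD11-OE, 15.5% ± 1.08 in LBD4-OE and 16.5% ± 1.20 in WT. For CesA4 and CesA8-B the SD of the share was smallest in LBD11-OE, and this was not tested. These shares depend on gene length as well as on transcript number and describe differences between groups only.

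Between libraries of 1 line, the genes varied together most closely in 2 pairs. For 22 libraries, the deviation of CesA4 from the mean of its line, in log2 CPM, followed that of CesA7-B with Pearson r = 0.83 and Spearman rho = 0.81 (permutation within lines, adjusted p = 8.50e-04 and 0.00245 over 10 pairs of genes). That of CesA7-A followed CesA8-B with r = 0.88 and rho = 0.87 (permutation adjusted p = 8.50e-04 and 8.00e-04). Without the 2 libraries farthest from the median on the x axis r was 0.82 and 0.83. For each r with libraries left out, here and below, the line means still took in all libraries. CesA7-A and CesA8-A had r = 0.82 and rho = 0.60 (permutation adjusted p = 0.00877 and 0.0333), and r was 0.52 without the 2 farthest libraries, WT replicates 3 and 2. CesA8-A and CesA8-B had r = 0.61 and rho = 0.51 (permutation adjusted p = 0.0304 and 0.0545), and r was 0.45 without the 2 farthest libraries, WT replicate 3 and LBD11-OE-1 replicate 1. Without the 2 libraries that stood apart r was 0.59 for CesA7-A with CesA8-A and 0.34 for CesA8-A with CesA8-B.

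Across the 2 pairs the relation did not pass. CesA4 and CesA8-B had r = -0.34 and rho = -0.36 (permutation adjusted p = 0.406 and 0.291), CesA4 and CesA7-A had r = -0.05 and rho = -0.11 (permutation adjusted p = 0.849 and 0.775), and the CESA7-class copies CesA7-A and CesA7-B had r = 0.43 and rho = 0.35 (permutation adjusted p = 0.178 and 0.291). Genes of 1 library share its depth and scaling. Without the 2 libraries that stood apart, but with the line means unchanged, r was 0.88 for CesA4 with CesA7-B and 0.82 for CesA7-A with CesA8-B.

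**Figure D5:**
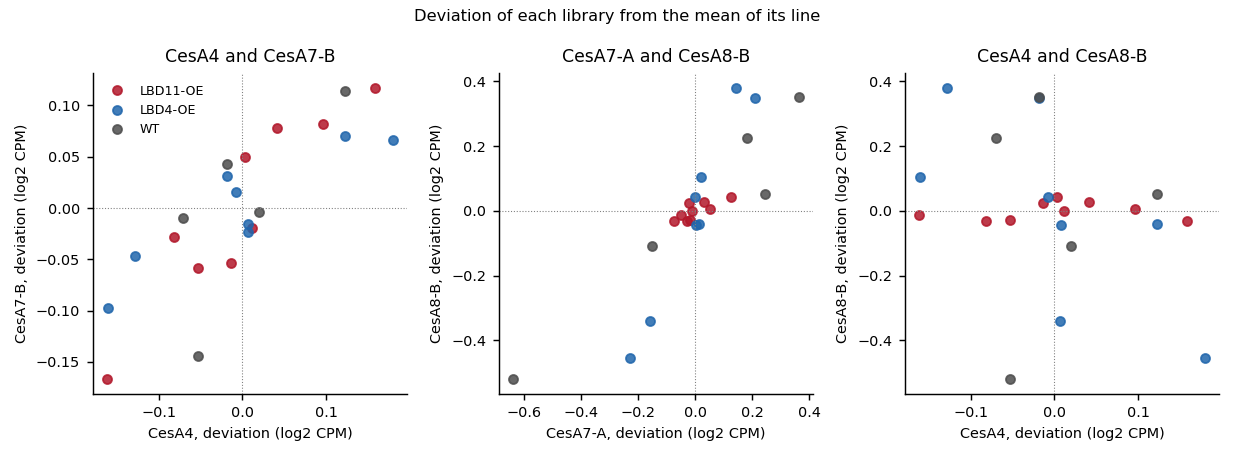
Deviation of each of the 22 libraries from the mean of its line in log2 CPM, for 3 pairs of genes (x and y axes, coloured by construct). CesA4 and CesA7-B (r = 0.83) and CesA7-A and CesA8-B (r = 0.88) deviate together, whereas CesA4 and CesA8-B (r = -0.34) do not.

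Other genes of cellulose synthesis were taken from lists of identifiers that could not be checked against an annotation. Of 12 identifiers listed as primary wall cellulose synthases, the subunits of growing cells, 11 rose and 0 fell in LBD11-OE against WT, with a median log2 fold change of 0.43, and 6 rose and 0 fell in LBD4-OE, with a median of 0.27. Between LBD11-OE and LBD4-OE 3 of the 12 were higher in LBD11-OE. Over all genes tested 16.1% rose in LBD11-OE against WT, 2.71% rose in LBD4-OE against WT and 8.08% were higher in LBD11-OE than in LBD4-OE, and the medians against WT were 0.0019 in LBD11-OE and -0.0018 in LBD4-OE. In LBD11-OE the smallest adjusted p-values belonged to Potri.005G087500 (0.84 ± 0.11), Potri.005G027600 (0.48 ± 0.07) and Potri.002G066600 (0.46 ± 0.07; SE, edgeR adjusted p = 2.27e-06, 8.94e-06 and 2.15e-05). In LBD4-OE they belonged to Potri.016G054900 (0.60 ± 0.09), Potri.005G027600 (0.36 ± 0.07) and Potri.005G087500 (0.45 ± 0.11; SE, edgeR adjusted p = 7.54e-04, 0.00630 and 0.0190). Both identifiers listed as KORRIGAN-type endoglucanases, membrane-bound enzymes needed for normal cellulose formation, rose in LBD11-OE (0.32 and 0.35), and in LBD4-OE they had 0.11 and 0.22 without passing. Of those listed as sucrose synthases, which can supply UDP-glucose, Potri.018G063500 had 0.34 ± 0.17 and Potri.006G136700 -0.01 ± 0.12 in LBD11-OE (SE; edgeR adjusted p = 0.131 and 0.953).

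The genes most like the 5 over the 22 libraries, by the mean Pearson r of log2 CPM to each of the 5, were Potri.003G151700 (mean r of 0.74), Potri.001G219700 (0.70) and Potri.015G147200 (0.70). Potri.003G151700, one of the identifiers of the KORRIGAN-type list, had its highest r with CesA7-B (0.89) and its lowest with CesA8-B (0.50), and averaged 1476 ± 190 CPM in LBD11-OE, 1271 ± 152 in LBD4-OE and 1180 ± 90.3 in WT. Potri.001G219700 averaged 134 ± 17.8 CPM in LBD11-OE, 113 ± 6.49 in LBD4-OE and 109 ± 18 in WT. Potri.015G147200 averaged 47.1 ± 4.62 CPM in LBD11-OE, 42.1 ± 3.12 in LBD4-OE and 37.6 ± 6.32 in WT. All 3 had their lowest r with CesA8-B. These correlations take in the differences between lines and libraries alike, and are descriptions.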

How the data were processed

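Per the labels, the authors deposited raw counts from HTSeq, 1 whole-number count per gene and library, unnormalized, from poly(A)-enriched RNA sequenced in pairs by Illumina HiSeq. Trimmomatic, HISAT2, Cufflinks and MultiQC are the other tools named in the submitters' processing notes. Versions, genome build and strand setting are not given in the sources used here. Reads that fit several copies of a gene can be lost or misassigned, and the transgenes were not analysed here.

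All 34699 genes entered edgeR 4.0.16 (R 4.3.3) with TMM scaling, the default filter (minimum count 10, minimum total 15) and robust quasi-likelihood F tests, with 3 construct means (25626 genes) or 7 means for WT and the lines (26271 genes). Adjusted p-values are Benjamini-Hochberg over all genes tested, with a threshold of 0.05. Log2 CPM used a prior count of 2. Counts of each pair of replicates differed by at least 5.78 in chi-square per degree of freedom, so no library was merged. Paralog shares and count ratios were tested by exact two-sided permutation over libraries (Python 3.11.15, numpy 2.4.6), and deviations from line means by 100000 permutations within lines. The fits were tested on simulated data, in which the comparisons of constructs had no differences between lines. That check cannot show how differences between lines affect those comparisons.

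The members and lists were chosen with earlier results of these data known. The count ratios, the deviations without some libraries, the line fits without the 2 libraries that stood apart, and the shares without them or within the larger set were added after the data had been seen. All 5 members are named, with at most 3 other cellulose synthesis genes per comparison with WT by smallest adjusted p, and the 3 genes most like the members. Alternatives were DESeq2 1.42.0, limma 3.58.1 voom with and without line as a random block, other size factors, no filter, non-robust fits, a replicate block, library set, and lines or libraries left out. Promoter motifs, levels per length and marker lists by product name needed a reference and were not used here.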

Additional observations from a re-analysis of the deposited data

Results flagged for a closer look

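The 3 LBD11-OE lines differed from each other in CesA4 (edgeR joint test, adjusted p = 0.00445) and in CesA7-B (edgeR joint test, adjusted p = 1.84e-04). In both genes LBD11-OE-14 was the highest line, with 2793 ± 175 CPM for CesA4, against 2087 ± 231 in LBD11-OE-2 and 1869.5 ± 62.3 in LBD11-OE-1 (SD, n = 3 each), and with 1320.5 ± 67.1 CPM for CesA7-B, against 893 ± 89.5 in LBD11-OE-2 and 838 ± 41.0 in LBD11-OE-1. Of all genes tested 1.36% differed among these lines.

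In LBD11-OE the CesA7-A share of the CESA7-class counts had 1 library far from the rest, LBD11-OE-2 replicate 2 at 39.5%, where the other 8 lay between 42.6% and 45.4%. It was the sole extreme among 21 groups looked at, and chance flags about 1 in 20.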

How the results depend on the processing

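The rises of CesA4 and CesA7-B in LBD11-OE passed the threshold against WT and against LBD4-OE under 39 of the 40 alternatives tried on the comparisons of constructs, including each of the 22 libraries left out singly, and missed it within the smaller library set. None of these alternatives took the line as the unit, although the LBD11-OE lines differed in both genes. In limma voom the random block for line used a single correlation of 0.083 for all genes. CesA8-A in LBD11-OE passed under 20 of its 40, with adjusted p-values from 0.00136 to 0.187. CesA7-A in LBD11-OE passed under 4, with adjusted p-values from 0.0217 to 0.510. The recomputed values of the 5 genes were log2 fold changes for constructs and lines, and F values for the joint tests among lines. Of these, 1496 kept both direction and side of the threshold, 46 lost the call and 10 gained it. Another 48 turned sign, none of the 48 being past the threshold before. An F value has no direction and cannot turn sign, so the joint tests add to the values that kept theirs. CesA8-A, the gene with the fewest counts, had 4225 or more in each library, so counting error was small beside the spread between libraries, which limits what 9 libraries against 5 can show.

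Differences near 0 turned sign as follows. CesA4 in LBD4-OE against WT, at 0.0071, was -0.0067 with upper quartile factors, -0.087 within the smaller set, -0.012 without the 2 libraries that stood apart (LBD4-OE-11 replicate 1 and WT replicate 3), -0.083 without line LBD4-OE-14 and -0.0012 in limma voom. CesA7-B in LBD4-OE against WT, at 0.0093, was -0.0038 with upper quartile factors, -0.020 without those 2 libraries and -0.093 without line LBD4-OE-14. CesA8-B in LBD11-OE against WT, at -0.04, was 0.36 within the smaller set, 0.036 without line LBD11-OE-1 and 0.019 without line LBD11-OE-2. CesA8-A in LBD11-OE against LBD4-OE, at 0.018, was -0.023 within the smaller set, -0.017 without those 2 libraries, -0.076 without line LBD4-OE-11, -0.027 without line LBD11-OE-1 and -0.025 without line LBD11-OE-14. CesA7-A in LBD11-OE against LBD4-OE, at 0.15, was -0.068 without line LBD11-OE-14. Leaving out both libraries that stood apart, CesA7-A and CesA8-A in LBD11-OE-2 were -0.011 and -0.020, and CesA7-A in LBD4-OE-17 was -0.054. The causes were not tested.

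Leaving out single libraries gave -0.030 to 0.045 for CesA4 and -0.034 to 0.039 for CesA7-B in LBD4-OE against WT, -0.15 to 0.055 for CesA8-B in LBD11-OE against WT and -0.026 to 0.059 for CesA8-A in LBD11-OE against LBD4-OE. Against WT it gave -0.010 to 0.21 for CesA7-A and -0.019 to 0.15 for CesA8-A in LBD11-OE-2, -0.026 to 0.21, -0.010 to 0.16 and -0.013 to 0.37 for CesA7-A, CesA8-A and CesA8-B in LBD4-OE-11, and -0.056 to 0.17, -0.23 to 0.14 and -0.10 to 0.029 for CesA7-A, CesA8-B and CesA4 in LBD4-OE-17. It moved the count of the 5 genes called between 0 and 3 in LBD11-OE-1, 0 and 2 in LBD11-OE-2, 0 and 1 in LBD4-OE-14, and 1 and 3 among the LBD11-OE lines. The count in LBD11-OE-1 was 1 without the 2 libraries that stood apart. The CesA7-A share of LBD11-OE against WT moved between -4.05 and -0.598 points and that of LBD4-OE against WT between 1.82 and 5.28.

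The count over all genes for LBD4-OE against WT, at 1097 as reported, was 2305 when library set was a term, 599 within the larger set, 725 within the smaller, 671 without the 2 libraries that stood apart, 667 without line LBD4-OE-14, 579 without line LBD4-OE-17, 1977 in DESeq2, 163 in limma voom when line was a random block, and 439 to 1549 with single libraries left out. With library set as a term 1 of the 5 genes was called there. LBD11-OE against WT had 3718 calls within the smaller set in place of 8281. LBD11-OE against LBD4-OE had 709 within the smaller set, with 0 of the 5 genes, and 2624 without line LBD11-OE-14, in place of 4346. The CesA7-A share of LBD11-OE against WT differed by -4.05 points without the 2 libraries that stood apart and by -3.65 within the larger set (exact permutation p = 0.0112 and 0.0381), and that against LBD4-OE by -5.98 with line means (exact permutation p = 0.10). Within the larger set the log2 ratio of CesA4 to CesA7-B differed by -0.0091 (LBD11-OE against WT), 0.037 (LBD4-OE against WT) and -0.046 (LBD11-OE against LBD4-OE), and those of CesA4 and CesA7-B to CesA8-B in LBD4-OE against WT by 0.063 and 0.026. The ratio of CesA4 to CesA7-B in LBD4-OE against WT differed by 0.0065 without the 2 libraries that stood apart. Ratios and shares were not run within the smaller set, which has 1 WT library.

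The replicate numbers are shared across groups, but same-numbered libraries did not deviate together (57 pairs, r from -0.41 to 0.32, median -0.017, 8 over 0.1), and 7 of the 22 libraries correlated best with a library of their own number. With the number as a replicate block, LBD4-OE against WT had 298 calls over all genes, CesA8-B was 0.042 in LBD11-OE and 0.053 in LBD4-OE-17 against WT, and 1 of the 5 genes was called in LBD11-OE-1. The block left 3 of the 5 genes called in LBD11-OE against WT (CesA4 at 0.52, edgeR adjusted p = 0.0141) and 2 against LBD4-OE.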
